A study of Mus musculus with 4 samples.

Results

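The genes described here are 41 proximal T cell receptor signalling genes, chosen by name as members of one pathway and found as 41 of the 59490 gene entries kept from the count files. They encode the chains and kinases that read the receptor, the adaptors and enzymes that carry the signal inwards, and the phosphatases, ligases and lipid kinases that hold it back. When the receptor binds antigen, LCK phosphorylates the CD3 and zeta chains, ZAP70 docks on them and phosphorylates the adaptors LAT and SLP-76, and the assembled complex starts calcium, RAS and NF-kB signalling. In CD8+ T cells the CD8 co-receptor brings LCK to the receptor, and PD-1, the target of the therapy, recruits phosphatases that act on these same early steps. All 41 genes were detected, with between 343 and 499137 counts in a library.

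The RNA came from CD8+ T cells that were CD11a-high (CD11a is an integrin chain raised on antigen-experienced cells), sorted by flow cytometry from the blood of patients given an antibody against PD-1. There were 4 groups of 1 library each, so no group has a replicate: responder after therapy, non-responder after therapy, responder before therapy and non-responder before therapy. Per the labels a cycle of antibody had 4 doses at intervals of 3 weeks, and 1 label places all collections after a cycle whereas the group label places 2 libraries before therapy. The group label was followed. The labels do not tie a library from after therapy to the patient of a library from before it, so time, patient and cohort cannot be told apart. A PD-1-positive tag stands in the names of the 2 libraries taken before therapy, and no label says if PD-1 was part of their gate. A difference in the gate could therefore not be told apart from time either. Mouse is the organism on the label, but the gene symbols and hg38 positions in the files are human, and the data were read as human.

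The libraries held between 65500644 and 129773591 counts. The 5 CD8 T cell markers CD3D, CD3E, CD8A, CD8B and CD2 summed to 4009.3 and 2768.3 CPM (counts scaled to a common library size by the TMM method) in the responder library and the non-responder library after therapy, and to 3793.4 CPM (responder) and 2933.1 CPM (non-responder) before therapy. Markers of other cells were present too. The 15 monocyte and neutrophil markers summed to 2010.5 CPM in the responder library and 9254.1 CPM in the non-responder library after therapy, with 0 of 15 higher in the responder, and to 219.5 CPM (responder) and 295.9 CPM (non-responder) before therapy, with 3 of 15 higher. The 5 epithelial markers summed to 157.5 CPM in the responder library before therapy against 8.48 CPM in the non-responder library before therapy, and to 1.85 CPM (responder) and 2.41 CPM (non-responder) after therapy. EPCAM, the defining marker of that list, was at 0 in every library but the responder before therapy, and CLDN4 was at 0 in both non-responder libraries. Of the monocyte and neutrophil markers FCGR1A alone was at 0, in the non-responder library before therapy. CD4, which monocytes and helper T cells express, was at 94.7 CPM in the non-responder library after therapy and between 4.48 and 11.5 CPM in the other 3. The 5 NK cell markers summed to 260.2 and 143 CPM in the responder library and the non-responder library after therapy and to 191 CPM (responder) and 129 CPM (non-responder) before therapy, with 4 of 5 higher in the responder at each time. In the responder after, non-responder after, responder before and non-responder before therapy libraries the sums were 16.4, 176, 31.8 and 77.1 CPM for 7 platelet markers, 4.999, 59.3, 2.46 and 1.64 CPM for 5 dendritic cell markers, 108, 81.7, 73.8 and 53.2 CPM for 6 B cell markers, and 19.0, 108, 9.62 and 7.36 CPM for 2 markers of CD4 T cells. Reads of such cells are part of each total, and in bulk RNA fewer cells of a type and less RNA per cell cannot be told apart.

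Together the 41 genes held 1.566% of all counts in the responder library after therapy (Wilson 95% interval 1.564 to 1.568), against 1.023% in the non-responder library after therapy (1.021 to 1.025). Before therapy the shares were 1.376% in the responder (1.373 to 1.378) and 0.9993% in the non-responder library (0.9969 to 1.002). The share was thus larger in the responder library at both times, and PTPRC alone made up between 12.2% and 24.6% of it. Scaled per kilobase of the gene length that the files give, the most abundant transcript was CD3D (mean over the 4 libraries 652 CPM per kilobase), followed by CD8B (351), CD8A (308), LCK (278) and PTPRC (268). The least abundant were UBASH3B (1.02), NFATC1 (3.21), PPP3CB (4.76) and PPP3CA (5.47). CD3D, CD3E, CD8A, CD8B and LCK thus stood above the enzymes and transcription factors downstream on the per-kilobase scale, whereas the chains CD247 (66.7) and CD3G (61.7) lay below the calcineurin subunit PPP3CC (74.6) and near ZAP70 (65.96). Intervals given with ratios below are exact 95% intervals for counting error alone, which PCR duplicates and the small input of 1 ng RNA can exceed.

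With TMM scaling, most of the genes were higher in the responder library of either time. After therapy 34 of the 41 were higher in the responder, with a median log2 ratio of 0.47, where the median of 18824 detected genes was 0.008 and 9486 of them were higher. Among 10118 genes at least as abundant as the scarcest of the 41, the median was 0.089 and 5789 were higher. Before therapy 28 of 41 were higher, with a median of 0.29, against 0.052 over all detected genes, of which 9869 were higher, and 0.067 over the 10118 abundant ones, of which 5470 were higher. At both times 25 genes (61% of the 41) were higher by any amount, where 39.1% of all genes with at least 5 CPM were, and 4 (9.76%) were lower, where 27.6% of all such genes were. After therapy the responder exceeded the non-responder library 2-fold or more for 5 of 41 (12.2%, against 5.79% of all genes), and 0 were 2-fold lower (against 8.85%). Before therapy it did so for 3 of 41 (7.32%, against 11.5% of all genes) and 1 was 2-fold lower (2.44%, against 8.93%). Past 1.5-fold, 15 of 41 were higher in the responder after therapy (36.6%, against 17.4% of all genes) and 0 lower (against 15.5%), and before therapy 11 were higher (26.8%, against 23.5%) and BCL10 and PPP3CA lower (4.88%, against 19%). The 6 that were 1.5-fold higher at both times (14.6%, against 8.27% of all genes) were LCK, FYN, SH2D1A, CD2, UBASH3A and UBASH3B, and 0 were lower at both (against 5.95%). The pair from after therapy was also the one with 4.6-fold lower monocyte and neutrophil markers in the responder, whose part in these counts was not tested. The plot of ratios by role shows that most of the shifts were smaller than 2-fold.

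**Figure D1:**
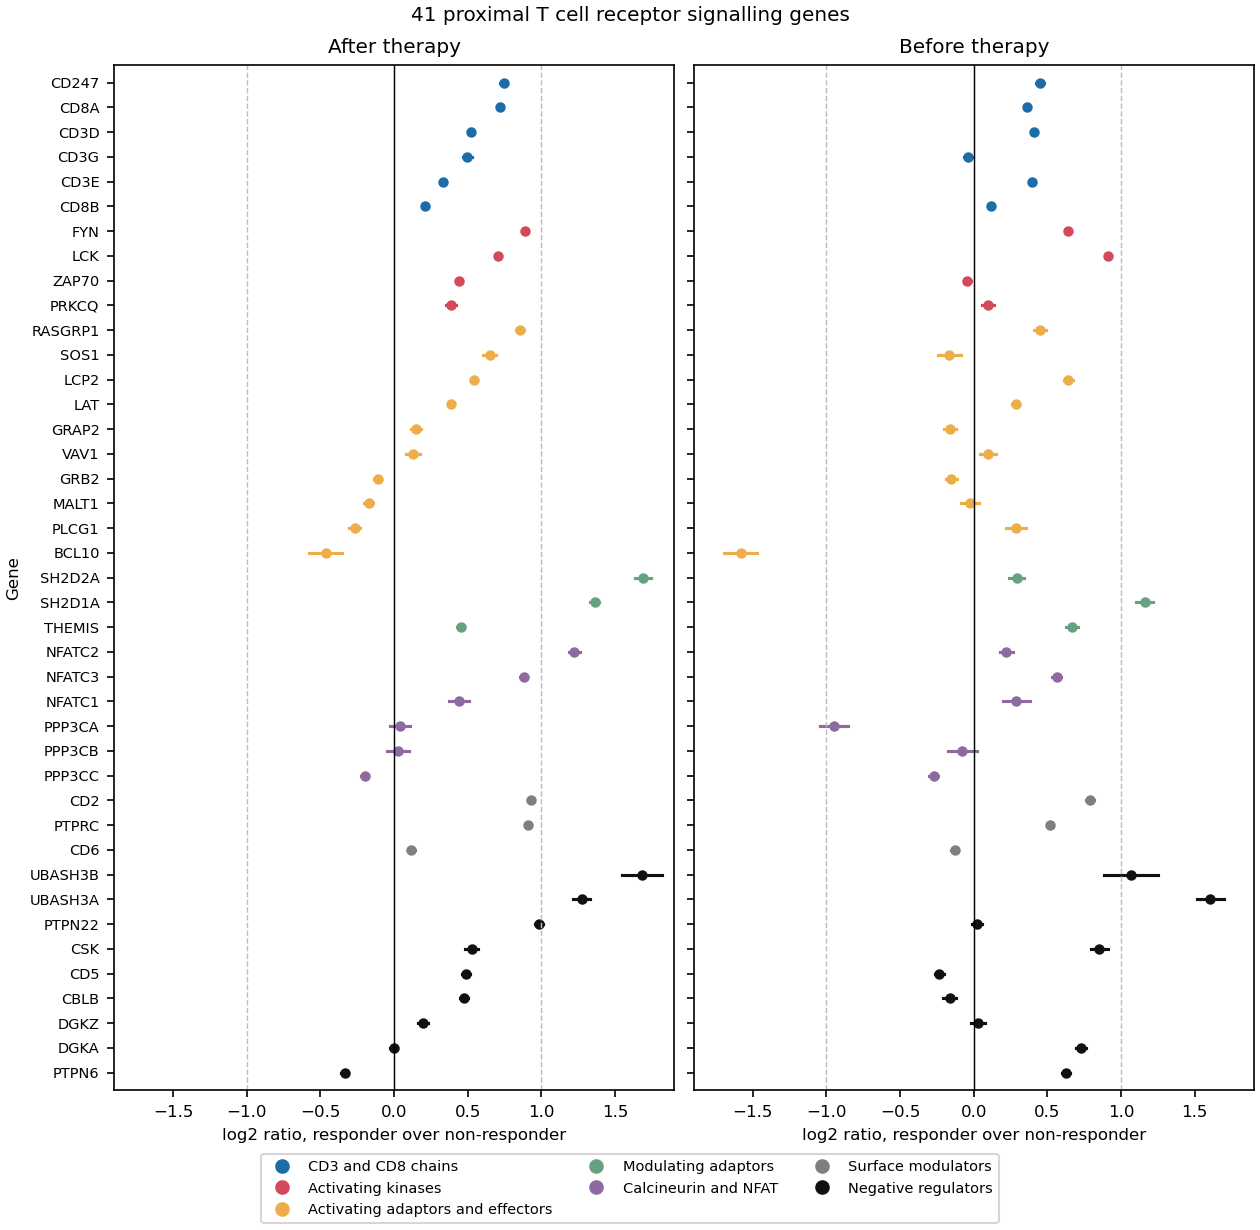
Log2 ratio of the responder over the non-responder library for the 41 genes after therapy (left) and before therapy (right), ordered and coloured by role, with 95% counting intervals as bars and dashed lines at a 2-fold difference. After therapy 34 genes lie right of 0 and before therapy 28, and SH2D1A, UBASH3A and UBASH3B lie beyond 2-fold in both panels.

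The receptor chains differed by less than 2-fold between responder and non-responder libraries. The CD3 chains are the signalling subunits of the receptor, with CD247 the zeta chain that carries most of the phosphorylation motifs. CD3D (ENSG00000167286, hg38 chromosome 11: 118338954 to 118342744) was at 579.6 CPM in the responder library and 404 CPM in the non-responder library after therapy (log2 ratio 0.52, interval 0.50 to 0.54). Before therapy CD3D was at 821 CPM in the responder library and 619 CPM in the non-responder library (0.41, interval 0.39 to 0.42). All 6 chains, CD3D, CD3E, CD3G, CD247, CD8A and CD8B, were higher in the responder after therapy, with log2 ratios between 0.21 and 0.74, and 5 of 6 were higher before therapy, with ratios between -0.039 and 0.45. The exception was CD3G, at 288.5 CPM in the responder library against 296 CPM in the non-responder library before therapy, which turns to a log2 ratio of 0.045 with scaling by library size only. Reads of CD8B can be shared with its near-copy CD8BP, which held between 4.17% and 5.64% of the CD8B count.

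Among the kinases, the SRC-family pair LCK and FYN had larger ratios than ZAP70 and PRKCQ. LCK, which starts the signal (ENSG00000182866, chromosome 1: 32251239 to 32286165), was at 1080.7 CPM in the responder library and 664 CPM in the non-responder library after therapy, a 1.63-fold ratio (log2 0.70, interval 0.69 to 0.72). Before therapy it was at 1283.8 CPM in the responder library and 683 CPM in the non-responder library, 1.88-fold higher (0.91, interval 0.90 to 0.93). Both responder libraries thus lay above both non-responder libraries, as they also did for other members, CD2 and UBASH3A among them. The share of all genes with this order was not counted. FYN, a relative of LCK that also binds the SLAM receptor adaptor (ENSG00000010810, chromosome 6: 111660332 to 111873452), was at 964 CPM in the responder library and 520.2 CPM in the non-responder library after therapy (0.89, interval 0.88 to 0.91). FYN was at 733 CPM in the responder library and 470.4 CPM in the non-responder library before therapy (0.64, interval 0.62 to 0.66), the same order as for LCK. ZAP70, the kinase that docks on the CD3 chains, had a log2 ratio of 0.44 after therapy and -0.043 before therapy, the last turning to 0.041 with scaling by library size only. PRKCQ, the protein kinase C that links the receptor to NF-kB, had ratios of 0.38 and 0.096.

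The activating adaptors and effectors lay on both sides of 0. The median log2 ratio of the 10 genes was 0.14 after therapy, with 6 higher and 4 lower in the responder, and 0.034 before therapy, with 5 higher and 5 lower. RASGRP1, an exchange factor that activates RAS, had ratios of 0.85 after and 0.45 before therapy, and LCP2, which encodes SLP-76, of 0.54 and 0.64. LAT, the membrane scaffold of the complex (ENSG00000213658, chromosome 16: 28984826 to 28990783), was the most abundant of them per kilobase, at 329 CPM in the responder library and 252 CPM in the non-responder library after therapy and 493 CPM (responder) and 405 CPM (non-responder) before therapy. An overlapping entry held 115% of the LAT count, and the strand setting of the counting is not given, so the LAT value is uncertain. The exchange factor VAV1 differed little (0.13 and 0.095), as did the adaptors GRAP2 (0.15 and -0.16) and GRB2 (-0.11 and -0.15).

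The NF-kB adaptor BCL10 was the one gene of the 41 that was at least 2-fold lower in a responder library. BCL10, which works with the paracaspase MALT1 (ENSG00000142867, chromosome 1: 85266248 to 85277090), was at 10.9 CPM in the responder library and 32.8 CPM in the non-responder library before therapy, 2.99-fold lower (log2 ratio -1.58, interval -1.70 to -1.47). After therapy BCL10 was at 9.14 CPM in the responder library and 12.6 CPM in the non-responder library (-0.46, interval -0.58 to -0.35). The difference before therapy thus lay in 1 library, the non-responder, which was above the other 3. MALT1 itself was at 121 CPM in the responder library and 137 CPM in the non-responder library after therapy and at 56.9 CPM (responder) and 58.0 CPM (non-responder) before therapy, log2 ratios of -0.17 and -0.028. PLCG1, the phospholipase that releases the calcium signal, and SOS1, a RAS exchange factor, pointed opposite ways at the 2 times: PLCG1 had log2 ratios of -0.27 after and 0.29 before therapy, and SOS1 of 0.65 and -0.17.

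The modulating adaptors SH2D1A, SH2D2A and THEMIS were higher in the responder library at both times. SH2D1A (ENSG00000183918, chromosome X: 124346344 to 124373155) encodes SAP, which couples SLAM receptors to FYN. It was at 275.5 CPM in the responder library and 107 CPM in the non-responder library after therapy, 2.57-fold higher (log2 ratio 1.36, interval 1.33 to 1.39). Before therapy it was at 119 CPM in the responder library and 53.4 CPM in the non-responder library, 2.23-fold higher (1.16, interval 1.10 to 1.22). Both responder libraries were above both non-responder libraries, the order also seen for LCK and FYN. Its span overlaps that of STAG2, an entry that held 88.6% of the SH2D1A count, and reads from the overlap could be assigned to either. NK cells, whose markers were higher in the responder libraries too, also express SH2D1A, FYN, LCK and CD2, and their part in these results was not tested. SH2D2A, an adaptor that binds LCK (ENSG00000027869, chromosome 1: 156806243 to 156816862), was at 108 CPM in the responder library and 33.5 CPM in the non-responder library after therapy, 3.23-fold higher (1.69, interval 1.64 to 1.74). Before therapy SH2D2A was at 89.8 CPM in the responder library and 73.5 CPM in the non-responder library (0.29, interval 0.24 to 0.34), so the non-responder library after therapy was the low one of the 4. THEMIS, best known from T cell selection in the thymus of mice, had log2 ratios of 0.45 after and 0.67 before therapy.

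**Figure D2:**
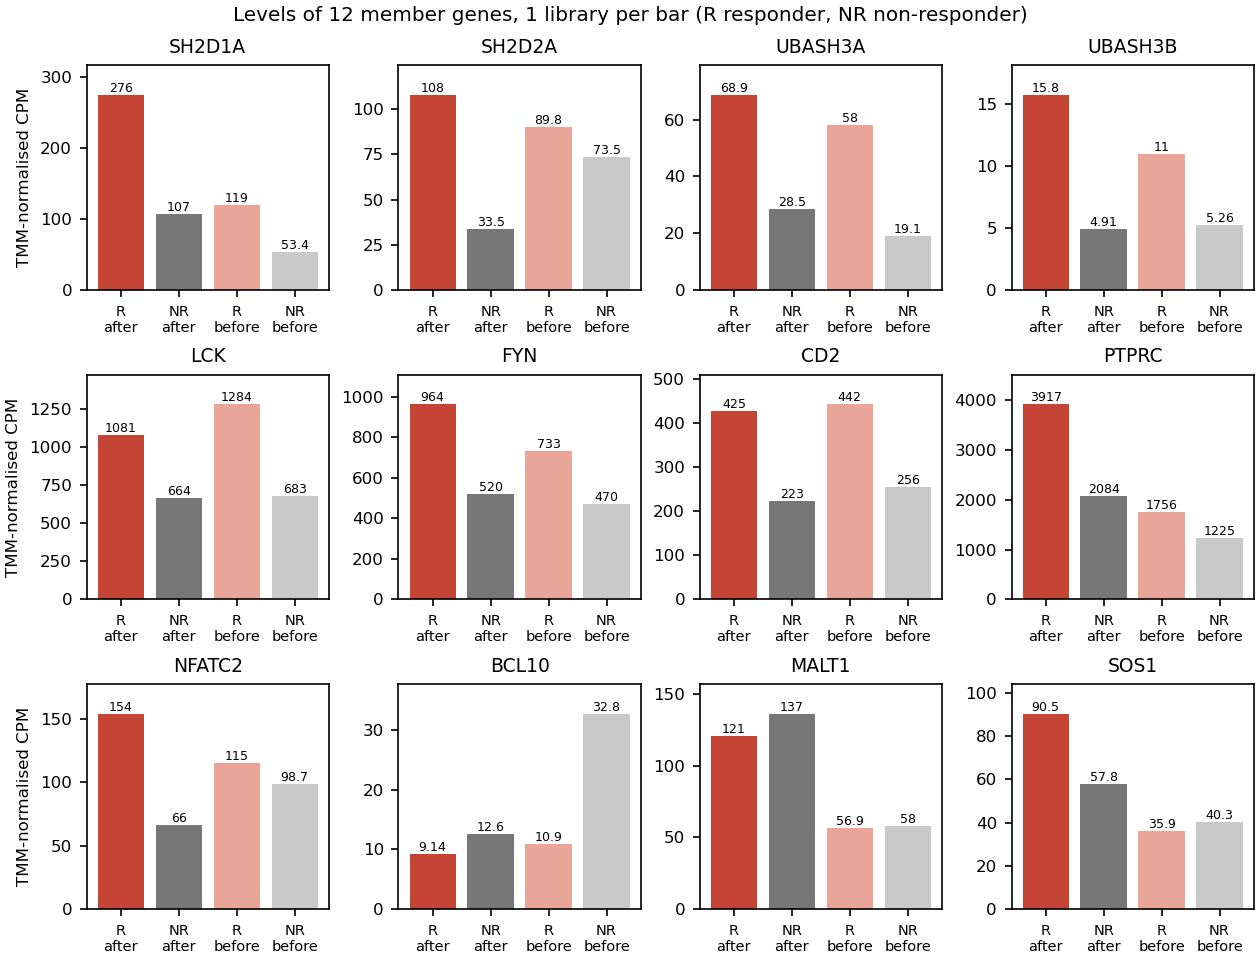
TMM-normalised CPM of 12 of the genes in each of the 4 libraries, 1 bar per library, with the responder (R) left of the non-responder (NR) and after left of before therapy; each panel has its own axis from 0. SH2D1A, UBASH3A, UBASH3B, LCK, FYN and CD2 are at least 1.5-fold higher in both responder libraries than in the non-responder library of the same time. SH2D2A, PTPRC and NFATC2 are also higher in both, by less than 1.5-fold before therapy. BCL10 is highest in the non-responder library before therapy.

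The genes of calcineurin, the calcium-dependent phosphatase, and of its targets, the NFAT transcription factors, differed in direction. All 3 NFAT genes were higher in the responder both after and before therapy, with log2 ratios after and before therapy of 0.44 and 0.29 for NFATC1, 1.22 and 0.22 for NFATC2, and 0.88 and 0.56 for NFATC3. NFATC2 (ENSG00000101096, chromosome 20: 51386957 to 51562831) was at 154 CPM in the responder library and 66 CPM in the non-responder library after therapy, 2.33-fold higher (interval of the log2 ratio 1.18 to 1.26), and at 115 CPM (responder) and 98.7 CPM (non-responder) before therapy. Of the catalytic subunits of calcineurin, PPP3CC, the form first known from testis, was by far the most abundant, with between 65.7 and 82.0 CPM per kilobase in the 4 libraries. PPP3CA and PPP3CB, the forms widespread in other tissues, lay between 3.41 and 6.59 CPM per kilobase. PPP3CC was at 207 CPM in the responder library and 238 CPM in the non-responder library after therapy, and at 190.3 CPM (responder) and 229.8 CPM (non-responder) before therapy, lower in the responder by log2 ratios of -0.20 and -0.27. Before therapy PPP3CA was at 17.8 CPM in the responder library against 34.4 CPM in the non-responder library, 1.93-fold lower, and its interval after therapy included 0 (-0.027 to 0.10). PPP3CB differed within counting error at both times, and an overlapping antisense entry held 77.6% of its count. Overlapping entries also held between 9.71% and 18.3% of the counts of NFATC3, PTPN22, DGKA, LCP2, PPP3CC and PLCG1.

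The surface molecules CD2 and PTPRC were higher in the responder, whereas CD6 differed little. CD2, an adhesion and costimulatory receptor (ENSG00000116824, chromosome 1: 116754385 to 116769228), was at 425 CPM in the responder library and 223 CPM in the non-responder library after therapy, 1.91-fold higher (log2 ratio 0.93, interval 0.91 to 0.95). Before therapy CD2 was at 442 CPM in the responder library and 256 CPM in the non-responder library, 1.73-fold higher (0.79, interval 0.76 to 0.82). PTPRC, which encodes the CD45 phosphatase of all leukocytes that keeps LCK ready to act (ENSG00000081237, chromosome 1: 198638671 to 198757283), was at 3917.4 CPM in the responder library and 2083.5 CPM in the non-responder library after therapy (0.91, interval 0.90 to 0.92). Before therapy PTPRC was at 1756.2 CPM in the responder library and 1225.2 CPM in the non-responder library (0.52, interval 0.51 to 0.53). Here time separated the libraries more than response did, since both libraries from after therapy lay above both from before it. CD6, a receptor with activating and dampening roles, had ratios of 0.12 after and -0.13 before therapy.

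Of the 9 negative regulators, 7 were higher in the responder at each time, but not the same 7. The 5 higher at both times (55.6%, against 39.1% of all genes) were PTPN22, CSK, UBASH3A, UBASH3B and DGKZ. Of these, UBASH3A and UBASH3B were at least 2-fold higher at both. UBASH3A and UBASH3B are related phosphatase-family proteins that dampen signalling at the level of ZAP70, UBASH3A being largely restricted to T cells. UBASH3A (ENSG00000160185, chromosome 21: 42403899 to 42447681) was at 68.9 CPM in the responder library and 28.5 CPM in the non-responder library after therapy, 2.42-fold higher (log2 ratio 1.27, interval 1.21 to 1.33). Before therapy it was at 58.0 CPM in the responder library and 19.1 CPM in the non-responder library, 3.04-fold higher (1.60, interval 1.51 to 1.70). UBASH3B (ENSG00000154127, chromosome 11: 122655675 to 122814473), the least abundant of all 41 genes in the mean over libraries, was at 15.8 CPM in the responder library and 4.91 CPM in the non-responder library after therapy, 3.21-fold higher (1.68, interval 1.54 to 1.82). Before therapy UBASH3B was at 11 CPM in the responder library and 5.26 CPM in the non-responder library, 2.09-fold higher (1.07, interval 0.89 to 1.25). With SH2D1A these were the 3 genes (7.32% of 41) past 2-fold in favour of the responder both after and before therapy, against 1.84% of all genes, and 0 were 2-fold lower at both times, against 2.01%.

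The other 7 negative regulators were less even. CSK, the kinase that switches off LCK, had log2 ratios of 0.53 after and 0.85 before therapy. DGKZ, a diacylglycerol kinase, had 0.20 and 0.028, the last within counting error. DGKA, its relative, had -0.004 after and 0.73 before therapy. PTPN22, a phosphatase acting on LCK and ZAP70, had 0.98 after and 0.019 before therapy, the last within counting error. CBLB, a ubiquitin ligase that sets the threshold of activation, had 0.47 and -0.17, and CD5, an inhibitory surface receptor, 0.49 and -0.23. CD5 (ENSG00000110448, chromosome 11: 61102395 to 61127852), the most abundant of the 9 per kilobase, was at 254 CPM in the responder library and 181 CPM in the non-responder library after therapy, and at 207 CPM (responder) and 243 CPM (non-responder) before therapy. PTPN6, which encodes the phosphatase SHP-1 found in most blood cells, was lower in the responder after therapy (-0.34) and higher before it (0.62). The monocyte and neutrophil markers, cells that also express PTPN6, were 4.6-fold lower in the same responder library after therapy and 1.35-fold lower before therapy, and their part in this result was not tested.

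Set against each other, the activating genes and the negative regulators differed most in the pair from before therapy. The median log2 ratio of the 14 activating kinases and adaptors was 0.38 after therapy, with 10 of 14 higher in the responder, and 0.096 before therapy, with 8 of 14 higher, where the medians of all detected genes were 0.008 and 0.052. The median of the 9 negative regulators was 0.49 after and 0.62 before therapy. Before therapy the activating median was thus near that of all genes. With a minimum mean of 10 CPM, which leaves out UBASH3B, the negative median before therapy was 0.33, and with the modulating adaptors counted as activating, the activating median before therapy was 0.28. Within a library, where scaling cancels, the mean log2 CPM of the activating genes exceeded that of the negative regulators by 0.36 in the responder and 0.66 in the non-responder library after therapy. Before therapy the excess was 0.34 in the responder and 0.76 in the non-responder library. In the responder libraries alone its sign depends on UBASH3B: with the minimum mean of 10 CPM it was -0.023 in the responder and 0.13 in the non-responder library after therapy, and -0.082 in the responder and 0.26 in the non-responder library before therapy. Per kilobase of gene length the excess was 0.57 and 0.87 in the responder library and the non-responder library after therapy and 0.55 (responder) and 0.96 (non-responder) before therapy. The excess was therefore smaller in the responder: on the log2 CPM scale, responder minus non-responder was -0.29 after therapy (counting interval -0.32 to -0.27) and -0.41 before therapy (-0.44 to -0.38). With that minimum the differences were -0.16 and -0.34. Without both UBASH3A and UBASH3B, a choice made after their values were seen, they were -0.039 and -0.17. Most of the difference at each time thus rests on those 2 genes, more so after therapy. Without BCL10 they were -0.24 and -0.28. Differences between the times were smaller, at 0.021 in the responder and -0.097 in the non-responder libraries, the last turning to 0.011 without BCL10.

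**Figure D3:**
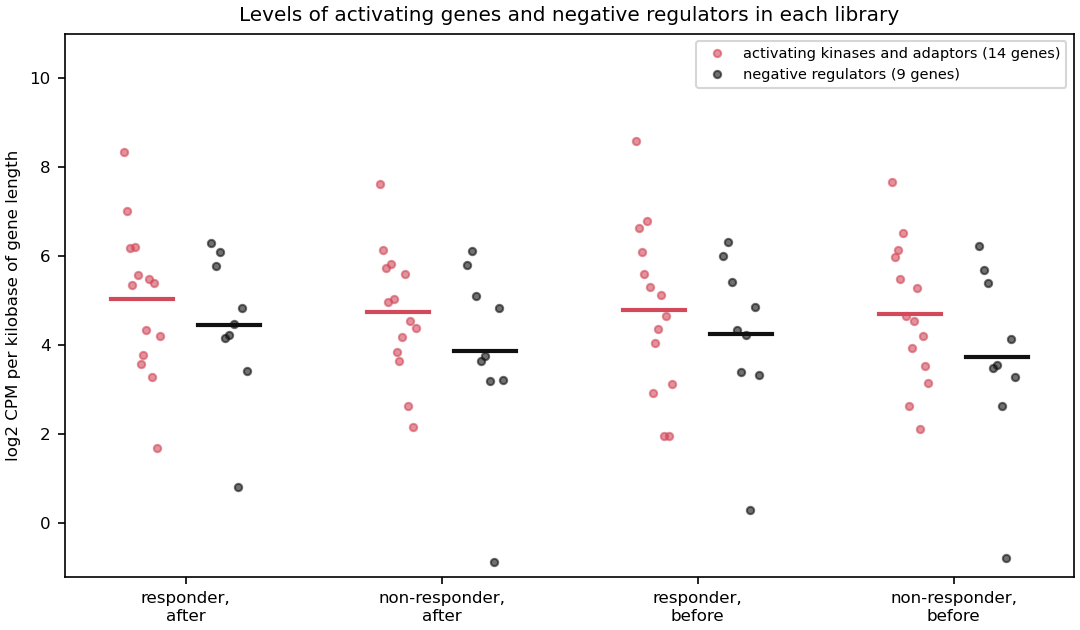
Log2 CPM per kilobase of gene length of the 14 activating kinases and adaptors (red) and the 9 negative regulators (black) in each library, 1 point per gene, with the mean of each set as a bar. The gap between the bars is 0.57 and 0.55 in the responder libraries after and before therapy, and 0.87 and 0.96 in the non-responder libraries.

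Fitted together, with time as a covariate and edgeR's quasi-likelihood test over 24113 genes, responder and non-responder libraries gave 0 of the 41 genes and 0% of all genes with an adjusted p below 0.05. Of 2119 genes whose unadjusted p was below 0.05, 14 belonged to the 41, all higher in the responder (34.1%, against 4.92% of all genes), and 0 were lower (against 3.87%). Many of the 24113 genes were scarcer than any of the 41. No share was counted among genes of like abundance, here or for time. The 14 were SH2D1A, UBASH3A, CD2, LCK, FYN, NFATC3, PTPRC, LCP2, UBASH3B, CSK, RASGRP1, CD247, THEMIS and CD8A. This count was not stable. With time left out of the model it was 7, all higher, where 757 of 24113 genes were higher and 608 lower. It also fell with each library left out in turn. Those fits left out time too and kept 1 library in a group, so the lost library and the lost covariate cannot be told apart. In the fit with time as a covariate SH2D1A was 1.26 ± 0.184 and UBASH3A 1.44 ± 0.232 (log2 ratio ± SE, adjusted p = 0.558 for each by edgeR). BCL10 was -1.02 ± 0.421 and SH2D2A 0.99 ± 0.415 (adjusted p = 0.580 and 0.581 by edgeR). All 4 of these genes kept their direction in both pairs. The fit has 1 residual degree of freedom. DESeq2 on the same design called SH2D1A, UBASH3A, CD2, LCK and FYN, 5 of 41 and all higher in the responder, where it called 1.75% of all genes higher and 1.97% lower, and limma-voom called 0 of 41.

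CD3E, a T cell transcript, can stand in for all reads as the base. It was itself higher in the responder, by log2 ratios of 0.33 after and 0.39 before therapy, so that every ratio is lower on this scale. Per 100 CD3E counts there were 9.17 UBASH3A counts in the responder and 4.78 in the non-responder library after therapy, and 7.95 (responder) and 3.43 (non-responder) before therapy, ratios of 1.92 and 2.31. SH2D1A had 36.7 and 18.0 counts per 100 CD3E counts in the responder library and the non-responder library after therapy and 16.3 (responder) and 9.61 (non-responder) before therapy, ratios of 2.04 and 1.70. UBASH3B had ratios of 2.55 and 1.60 on this scale. LCK had 1.29 and 1.43, FYN 1.47 and 1.19, and CD2 1.52 and 1.32. CD8A, LAT and ZAP70 had ratios of 1.31, 1.04 and 1.08 after therapy and of 0.977, 0.927 and 0.739 before therapy, so they lay on both sides of 1. The median log2 ratio of the 41 genes was 0.47 after therapy, above that of CD3E, and 0.29 before therapy, below that of CD3E. Most of the 41 were thus above 1 on this scale after therapy and below 1 before therapy.

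The second comparison asked how these genes differed between libraries from after and before therapy, of which only the latter carry the PD-1-positive tag. In the responder libraries 4 of 41 (9.76%, against 8.5% of all genes) were at least 2-fold higher after therapy, SOS1, MALT1, SH2D1A and PTPRC, and 0 were 2-fold lower (against 4.69%). In the non-responder libraries 3 of 41 (7.32%, against 15.6%) were at least 2-fold higher, PLCG1, MALT1 and SH2D1A, and 2 (4.88%, against 8.25%) were 2-fold lower, BCL10 and SH2D2A. These shares were near or below those of all genes. MALT1 and SH2D1A were 2-fold higher in both, 4.88% of the 41 against 3.87% of all genes, and 0 were 2-fold lower in both, against 1.52%. Past 1.5-fold, 9 were higher and 0 lower after therapy in the responder libraries (against 20.9% and 13.6% of all genes), 6 were higher and 6 lower in the non-responder libraries (against 26.9% and 19.3%), and PLCG1, MALT1, SH2D1A and PTPRC were higher and 0 lower in both (against 10.8% and 6.24%). By any amount, 18 of 41 were higher in both (43.9%, against 38.9%) and 11 lower (26.8%, against 30%). MALT1 (ENSG00000172175, chromosome 18: 58671386 to 58750139) was 2.13-fold higher in the responder libraries (log2 ratio after over before 1.09, interval 1.04 to 1.14) and 2.36-fold higher in the non-responder libraries (1.24, interval 1.18 to 1.29). SOS1 (ENSG00000115904, chromosome 2: 38981396 to 39124345) was at 90.6 CPM after and 35.9 CPM before therapy in the responder libraries (1.33, interval 1.28 to 1.39), and at 57.8 and 40.3 CPM after and before therapy in the non-responder libraries. PLCG1 (ENSG00000124181, chromosome 20: 41136960 to 41196787) was at 112 CPM after and 48.3 CPM before therapy in the non-responder libraries (1.22, interval 1.16 to 1.27), and at 93.2 and 58.9 CPM after and before therapy in the responder libraries.

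PTPRC, expressed by all leukocytes, was 2.23-fold higher after therapy in the responder libraries and 1.7-fold higher in the non-responder libraries. In these same pairs the monocyte and neutrophil markers summed 9.16-fold and 31.3-fold higher after therapy, and their part in the PTPRC values was not tested.

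In the other direction, CD3D, CD3G, CD247 and LAT were lower after therapy in both, with log2 ratios between -0.37 and -0.58 in the responder and between -0.61 and -0.98 in the non-responder libraries. The additive fit for time called 0 of 41 and 0% of all genes by edgeR, with 2732 genes at an unadjusted p under 0.05. Among these, 6 of the 41 were higher after therapy (14.6%, against 6.9% of all genes) and 3 lower (7.32%, against 4.43%). The 6 were MALT1, SH2D1A, PTPRC, PLCG1, SOS1 and THEMIS, and the 3 were LAT, CD3D and CD3G. The count of 9 was 3 with response left out of the model, all higher, where 1286 of 24113 genes were higher and 859 lower. It also fell with each library left out in turn, in fits that left out response too and kept 1 library in a group. In the additive fit MALT1 was 1.16 ± 0.184 and LAT -0.633 ± 0.17 (log2 ratio of after over before ± SE, adjusted p = 0.409 and 0.412 by edgeR), in the same direction in both pairs. DESeq2 called MALT1, SH2D1A, PTPRC and PLCG1, 4 of 41 and all higher after therapy, where it called 4.47% of all genes higher and 1.82% lower. With limma-voom 0 of 41 were called, where it called 0.00829% of all genes higher. The difference with time went with gene length. The 10 shortest of the 41, up to 3221 bases, had medians of 0.082 in the responder and -0.14 in the non-responder libraries, and the 10 longest, from 7784 bases, of 0.47 and 0.18. Across the 41 genes Spearman's rho of length with the log2 ratio of time was 0.42 in the responder and 0.38 in the non-responder libraries, as a description of genes that share their libraries. Across 9864 genes with a mean of at least 10 CPM it was 0.32 and 0.18. The part of length in the values of single genes was not tested. With the ratio of responder over non-responder, rho over the 41 was -0.074 after and -0.076 before therapy.

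**Figure D4:**
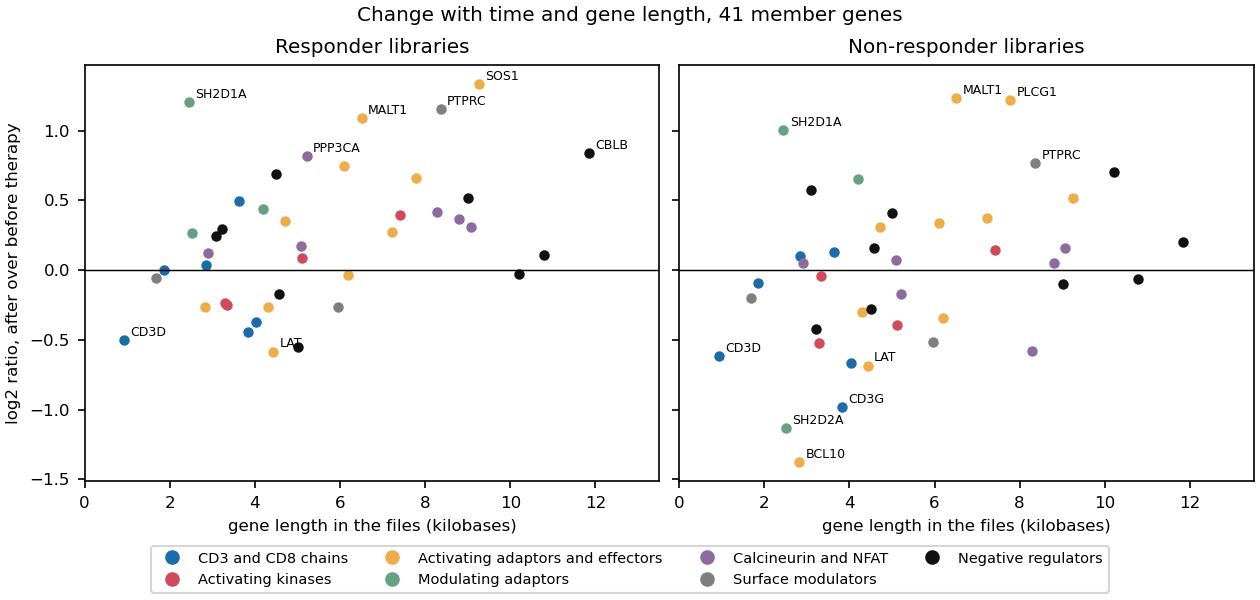
Log2 ratio of after over before therapy for the 41 genes against gene length in kilobases as the files give it, in the responder (left) and non-responder libraries (right), coloured by role. Long genes such as SOS1, PLCG1 and PTPRC lie above 0 and short ones such as CD3D below, with rho of 0.42 and 0.38, while the short gene SH2D1A lies above 0 in both.

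A list of 68 further genes of the pathway, all found in the files, had shares near or below those of all genes at 2-fold. After therapy 1 of 67 with at least 5 CPM lay 2-fold or more above the non-responder in the responder (1.49%, against 5.79% of all genes) and 4 were 2-fold lower (5.97%, against 8.85%). Before therapy 5 of 66 were higher (7.58%, against 11.5%) and 2 lower (3.03%, against 8.93%), and 0 were 2-fold higher and 0 lower at both times (against 1.84% and 2.01%). Past 1.5-fold, 6 of 66 were higher at both times (9.09%, against 8.27% of all genes), among them LAX1, TRAT1, RNF41 and PTPRCAP, and TEC and PIK3R1 were lower (3.03%, against 5.95%). Highest in the responder after therapy were the adaptors LAX1, which dampens signalling, at 63.8 CPM in the responder library against 22.2 CPM in the non-responder library, and TRAT1, at 114 CPM (responder) against 57.6 CPM (non-responder). Lowest were CD4, at 11.5 CPM in the responder library against 94.7 CPM in the non-responder library, and the kinase TEC, at 2.85 CPM (responder) against 11.2 CPM (non-responder). Before therapy the ligase RNF41, at 24.1 CPM in the responder library against 6.22 CPM in the non-responder library, and TRAT1, at 71.1 CPM (responder) against 26.1 CPM (non-responder), were highest. PIK3R1, a regulatory subunit of PI3 kinase, at 125 CPM in the responder library against 407 CPM in the non-responder library, and the adaptor SLA2, at 84.5 CPM (responder) against 208.5 CPM (non-responder), were lowest. Between times 5 of 66 in the responder and 11 of 67 in the non-responder libraries were at least 2-fold higher after therapy (7.58% and 16.4%, against 8.5% and 15.6% of all genes), and 2 and 3 were lower (3.03% and 4.48%, against 4.69% and 8.25%). In both, 3 genes, CD4 among them, were 2-fold higher and LIME1 was 2-fold lower (4.55% and 1.52% of 66, against 3.87% and 1.52% of all genes). In the responder libraries PIK3R1 (log2 ratio 1.89) and CD4 (1.36) were highest after therapy and LIME1 (-1.06) and PTPRCAP (-1.01) lowest. In the non-responder libraries CD4 (4.30) and CD28 (1.61) were highest and LIME1 (-1.28) and CABIN1 (-1.2) lowest, in libraries whose monocyte and neutrophil markers were 31.3-fold higher after therapy, with 15 of 15 higher, and the part of those cells was not tested.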

How the data were processed

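Per the labels' protocols, the SMARTer Ultra Low kit turned 1 ng of RNA into each library, which was sequenced as paired reads of 101 bases. Per the submitters' processing notes, bcl2fastq 1.8.4 and TopHat2 were used with hg38; the counting tool, its strand setting and its annotation were not given in the sources used here. The authors deposited raw counts per Ensembl gene, with 64253 entries per file. Tables and tests left out 4146 entries on alternate contigs and 617 genes that can tell sex, and library totals kept all counts. Members were matched by gene symbol, and empty second entries of THEMIS and PTPRC on alternate contigs were dropped with those contigs. Members, roles and lists were chosen with earlier results of these data known.

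The fit used edgeR 4.0.16 in R 4.3.3 (filterByExpr, TMM, additive model of response and time, quasi-likelihood test, two-sided, Benjamini-Hochberg, 0.05), with all 41 genes passing the filter and a common coefficient of variation of 0.66. Each SE is the fitted log2 ratio, without sign, over the root of F. Since nothing replicates a group, a p-value here rests on how these 4 libraries depart from additivity. DESeq2 1.42.0 and limma 3.58.1 were alternatives, with other scaling, filters, folds and prior counts and with each library left out. Fits with a library left out held no covariate. Ratios of 1 library over another were taken after TMM scaling, with 0.5 as prior count; their intervals are exact (conditional binomial) and they have no test. The code was tested on simulated counts. The pass condition used a smaller spread than that of the data and larger differences than those of the 41 genes.

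Values in all libraries are given for genes at least 2-fold apart in a pair with at least 5 CPM, at least 1.5-fold apart the same way at both times, or highest per kilobase in their role group. From the further pathway list, the 2 highest and 2 lowest ratios per pair are named. PPP3CA and the genes per 100 CD3E counts were added after their values were seen.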

Additional observations from a re-analysis of the deposited data

Results flagged for a closer look

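The ratios of 16 genes pointed one way in 1 pair of libraries and the opposite way in the other pair of the same contrast, with both counting intervals clear of 0. With 1 library per group the difference was not tested. The value given is the log2 ratio of responder over non-responder after therapy minus that before therapy, which equals the change with time in responder minus that in non-responder libraries. For the contrast of responder with non-responder it was 0.54 for CD3G, 0.48 for ZAP70, -0.55 for PLCG1, 0.31 for GRAP2, 0.81 for SOS1, 0.25 for CD6, 0.72 for CD5, -0.96 for PTPN6 and 0.64 for CBLB. For the contrast of after with before therapy it was 0.48 for ZAP70, 1.40 for SH2D2A, 0.99 for PPP3CA, 1.00 for NFATC2, 0.72 for CD5, -0.96 for PTPN6, 0.96 for PTPN22, -0.33 for CSK, -0.73 for DGKA and 0.17 for DGKZ. The 9 genes by response and 10 by time are 22% and 24.4% of the 41. Among all genes reaching 5 CPM in each pair, 24.4% by response and 23% by time met the same condition, so at these depths the counts over the 41 are near those of all genes. Of the 9 negative regulators alone, 3 met it by response (33.3%) and 6 by time (66.7%). In either contrast 7 of the 9 met it (77.8%, against 37.9% of all genes and 39% of the 41). No other role group was counted in this way, so these shares do not set the negative regulators apart from the other groups.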

How the results depend on the processing

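By response, edgeR called 0 genes, and DESeq2 called 896 genes and 5 of the 41. By time edgeR called 0 genes, 2 without a filter on low counts, limma-voom 2, and DESeq2 1516 and 4 of the 41. At 1.5-fold in place of 2-fold, the genes higher in the responder numbered 15 after and 11 before therapy, with 2 lower before therapy, and those higher after therapy 9 in responder and 6 in non-responder libraries, with 6 lower in non-responder libraries. Of the further pathway genes, 1.5-fold gave 10 higher and 5 lower in the responder after therapy (14.9% and 7.46%, against 17.4% and 15.5% of all genes) and 14 higher and 8 lower before therapy (21.2% and 12.1%, against 23.5% and 19%). By time it gave 16 higher and 7 lower in responder (24.2% and 10.6%, against 20.9% and 13.6%) and 22 higher and 7 lower in non-responder libraries (32.8% and 10.4%, against 26.9% and 19.3%). Library size only gave 2 pathway genes higher in the responder after therapy and 3 higher by time in the responder libraries, and DESeq2 size factors gave 1 lower by time there. Other scalings moved the median of all genes by at most 0.095.

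The activating minus negative difference in the responder after, non-responder after, responder before and non-responder before therapy was -0.023, 0.13, -0.082 and 0.26 with genes of a mean of at least 10 CPM, 0.48, 0.78, 0.45 and 0.95 without CD5, and 0.39, 0.53, 0.30 and 0.61 with the modulating adaptors counted as activating. Responder minus non-responder was -0.16 after and -0.34 before therapy with the 10 CPM minimum, -0.50 before therapy without CD5, and -0.14 and -0.30 with the modulating adaptors. Chosen after seeing the data, leaving out UBASH3A and UBASH3B gave -0.039 and -0.17, and leaving out BCL10 gave -0.24 and -0.28 and, by time in the non-responder libraries, 0.011. With library size only, CD3E (-0.063) and ZAP70 (-0.015) turned by time in the responder libraries, and CD3G (0.045) and ZAP70 (0.041) by response before therapy. The causes were not tested. No paired analysis was possible because the labels tie no libraries to the same patient; the additive fit holds the other factor as a covariate. Depth limits few of these genes, the lowest count being 343; the missing replicates limit all of them.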

Other observations

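Shares within gene families, on the scale of CPM per kilobase, are given here for the 4 libraries. LCK made up 71.3% of the LCK and FYN sum in the responder and 73.9% in the non-responder library after therapy, and 79.5% and 76.3% before therapy. NFATC3 made up 63.8% of the NFAT sum in the responder and 66.5% in the non-responder library after therapy, and 64.3% and 58.9% before therapy. UBASH3A was between 10.6 and 16.9 times as abundant as UBASH3B in each library, although both were higher in the responder libraries. After therapy DGKA was 2.66 times as abundant as DGKZ in the responder and 3.06 times in the non-responder library, and 2.92 and 1.8 times before therapy.

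For the 2 chains of the CD8 co-receptor, the ratio of CD8A to CD8B was 1.16 in the responder and 0.812 in the non-responder library after therapy, and 0.823 and 0.695 before therapy, so it was above 1 only in the responder library after therapy among these 4. Among the CD3 chains, CD3D made up 61.6% of the sum in the responder and 60.0% in the non-responder library after therapy, and 67.7% and 66.3% before therapy.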
